A study of Mus musculus with 9 samples.

Results

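Myeloid C-type lectin receptors are membrane proteins with which macrophages, monocytes, dendritic cells and, for one of them, sinusoidal endothelial cells bind sugars and lipids of microbes and of damaged cells. The set described here holds 10 genes, chosen by name: Clec7a, Clec4n, Clec4d, Clec4e, Clec4a1, Clec4a2, Clec4a3, Clec12a, Mrc1 and Clec4g. They fill 11 of the 35275 entries of the gene table, since Clec7a has a second entry that holds 0 counts in all 9 libraries and was left out of every value below. Of the 10 genes, 8 had enough counts to be tested, among 13151 genes tested in all, and Clec4d and Clec4e did not.

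RNA was sequenced from frozen liver of C57BL/6 mice in 3 groups with 3 libraries each. The vehicle group received PBS, the second group received AdipoRon, a compound that activates the receptors of the hormone adiponectin, and the third received AdipoRonPEG5, an AdipoRon analog carrying a polyethylene glycol group. The protocol gives injections 2 times a day for 5 days at 5 mg/kg, and attaches that amount to PBS as well, so the exact amount of each compound is taken from a sentence that does not separate them. The sources used here do not give the diet, age, sex or metabolic state of these mice, or whether each library came from a separate animal, and p-values then measure only the spread between these libraries. The comparisons asked how each compound altered liver RNA relative to vehicle and how the compounds differed from each other.

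The receptors signal in opposite ways through a small set of adaptors. Clec7a (Dectin-1, a receptor for fungal beta-glucan) carries a single-tyrosine activating motif in its own tail and recruits the kinase Syk, whereas Clec4n (Dectin-2), Clec4d (MCL) and Clec4e (Mincle) lack such a tail and use the Fc receptor gamma chain, encoded by Fcer1g. Clec4a2 (DCIR) and Clec12a carry inhibitory tyrosine motifs that recruit phosphatases, Clec4a1 and Clec4a3 are close relatives of Clec4a2 that lack the inhibitory motif, and Mrc1 (the mannose receptor) and Clec4g (LSECtin) bind and take up glycans, Clec4g mainly on the endothelium of liver sinusoids.

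Of the 10 genes, 8 lie on chromosome 6. On the GRCm38 assembly with GENCODE M21 gene models, which may not be the authors' build, Clec4a1 (chr6:122921848-122934619), Clec4a3 (chr6:122952515-122969875), Clec4a2 (chr6:123106428-123143999), Clec4n (chr6:123229843-123247021) and Clec4d (chr6:123262111-123275265) follow each other on the plus strand, and Clec4e (chr6:123281789-123289870) comes next on the minus strand. Clec12a (chr6:129342691-129365303, plus strand) and Clec7a (chr6:129461591-129472779, minus strand) form a second group on the same chromosome. Mrc1 lies at chr2:14229392-14332057 on the plus strand, and Clec4g at chr8:3707064-3720651 on the minus strand, where the unnamed gene model Gm16553 overlaps it on the other strand. Reads of overlapping or near-identical genes can be split or exchanged in counting: 6.83% of the 50-base stretches of Clec4a2 transcripts also occur in transcripts of other genes, mainly Clec4a4 and Clec4b1, against 1.96% for Clec4g (all of them in Gm16553), 0.686% for Clec4n, 0.457% for Clec12a and 0 for the other 6. The processed pseudogene Gm44132 overlaps Clec4a2 on the same strand, and the microRNA gene Mir511 overlaps Mrc1. The value of Clec4a2 is uncertain because of the overlap and the shared stretches, and that of Clec4g because no source used here gives the strand setting of the counting.

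Promoter sequences are shown for 3 members that gave different patterns in the counts described below: Clec7a, which was higher with AdipoRonPEG5 than in both other groups, Clec4a1, which was higher with both compounds, and Clec4g, which passed no test. Each is the RefSeq sequence of GRCm38.p6 from 250 bases before to 50 bases after the annotated start, written in the direction of transcription. Capitals mark GAGGAA, the core letters that the myeloid factor PU.1 binds, on either strand (TTCCTC when read from the other strand). They also mark TGANTCA, a pattern with any base at N that is wider than the letters bound by AP-1 factors.
Clec7a promoter: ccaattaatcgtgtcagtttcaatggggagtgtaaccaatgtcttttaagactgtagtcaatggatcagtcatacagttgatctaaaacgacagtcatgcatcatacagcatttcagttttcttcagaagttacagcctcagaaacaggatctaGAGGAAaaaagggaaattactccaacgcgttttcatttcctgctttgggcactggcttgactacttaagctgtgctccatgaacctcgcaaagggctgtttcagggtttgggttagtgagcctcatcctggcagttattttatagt
Clec4a1 promoter: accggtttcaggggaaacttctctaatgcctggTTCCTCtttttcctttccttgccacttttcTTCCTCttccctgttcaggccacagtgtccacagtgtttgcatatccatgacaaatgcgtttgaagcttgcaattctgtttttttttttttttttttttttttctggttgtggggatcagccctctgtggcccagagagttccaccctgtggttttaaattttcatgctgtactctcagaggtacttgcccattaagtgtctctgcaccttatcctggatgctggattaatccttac
Clec4g promoter: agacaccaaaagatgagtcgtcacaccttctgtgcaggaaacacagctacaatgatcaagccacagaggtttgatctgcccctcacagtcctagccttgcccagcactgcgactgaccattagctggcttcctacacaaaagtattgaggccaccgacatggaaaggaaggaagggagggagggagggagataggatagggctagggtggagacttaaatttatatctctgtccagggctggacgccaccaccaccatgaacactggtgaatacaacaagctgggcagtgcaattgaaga
The Clec7a window (chr6:129472730-129473029, minus strand) holds GAGGAA once, beginning 96 bases before the start. The Clec4a1 window (chr6:122921598-122921897, plus strand) holds TTCCTC at 217 and at 187 bases before the start, and the Clec4g window (chr8:3720602-3720901, minus strand) holds no match to these letters. Of the 10 members, 9 had a promoter in the RefSeq table, in 11 windows because Clec7a and Clec4a3 have 2 annotated starts each. GAGGAA was present in 8 of the 11 windows (7 of the 9 genes), against 28.3% of all 32851 promoter windows, which include genes expressed in any tissue. The 2 genes without it were Clec4a2 and Clec4g. The longer form GAGGAAGT, of which GAGGAA is a part, was in none of the members' windows and in 3.2% of all windows. TGANTCA was in 2 windows, those of Clec4a2 (as TGACTCA) and Clec12a (as TGAATCA), and in 7.81% of all windows. A match is a description of the letters and not of binding.

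The first vehicle library held 39473195 counts, and the other 8 held from 13942322 to 18508950. CPM is the usual unit of counts scaled to a common library size, here by TMM over the tested genes, and levels are in CPM unless FPKM, the authors' value per kilobase of transcript, is named. Vehicle library 3 and AdipoRonPEG5 library 1 stood apart in acute phase genes: Saa1, a serum protein made by hepatocytes in inflammation, was at 4959 and 1952 CPM there, against 45.1 to 497 in the other 7. Results below are also given without these 2 libraries where that changes a call. In whole liver, more cells of a type and more RNA per cell cannot be told apart.

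Per length, Clec4g was the most abundant member in all 3 groups and Mrc1 the second. In vehicle livers Clec4g was at 18.3 ± 3.84 FPKM (mean ± SD, n = 3 here and below) and Mrc1 at 2.68 ± 0.452 FPKM, and neither range overlapped that of its neighbour in the order. Then came Clec4n at 0.726 ± 0.412, Clec4a3 at 0.579 ± 0.340, Clec12a at 0.574 ± 0.207, Clec7a at 0.557 ± 0.038, Clec4a1 at 0.456 ± 0.212, Clec4a2 at 0.255 ± 0.046 and Clec4d at 0.141 ± 0.105 FPKM, each overlapping the next. Clec4e was lowest, at 0.002 ± 0.003 FPKM, below all values of Clec4d. With AdipoRonPEG5 the order below Clec4g (21.4 ± 2.37 FPKM) was Mrc1 at 4.57 ± 0.405, Clec7a at 3.66 ± 0.839, Clec4a1 at 2.88 ± 0.569 and Clec4a3 at 2.77 ± 0.201 FPKM, again with neighbours from Mrc1 to Clec4a3 overlapping. Clec12a at 2.09 ± 0.241 FPKM lay below Clec4a3 and overlapped Clec4n at 1.90 ± 0.116 FPKM. Clec4a2 at 1.02 ± 0.103 FPKM lay below both, and Clec4d and Clec4e followed at 0.215 ± 0.160 and 0.063 ± 0.048 FPKM. With AdipoRon, Clec4g was at 17.7 ± 4.15 FPKM, the 7 members from Mrc1 at 3.87 ± 1.41 down to Clec7a at 1.10 ± 0.298 FPKM each overlapped their neighbour, and Clec4d and Clec4e were at 0.046 ± 0.048 and 0.030 ± 0.034 FPKM. By level per length, Clec7a was the third of the 10 with AdipoRonPEG5 and the eighth with AdipoRon.

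**Figure D1:**
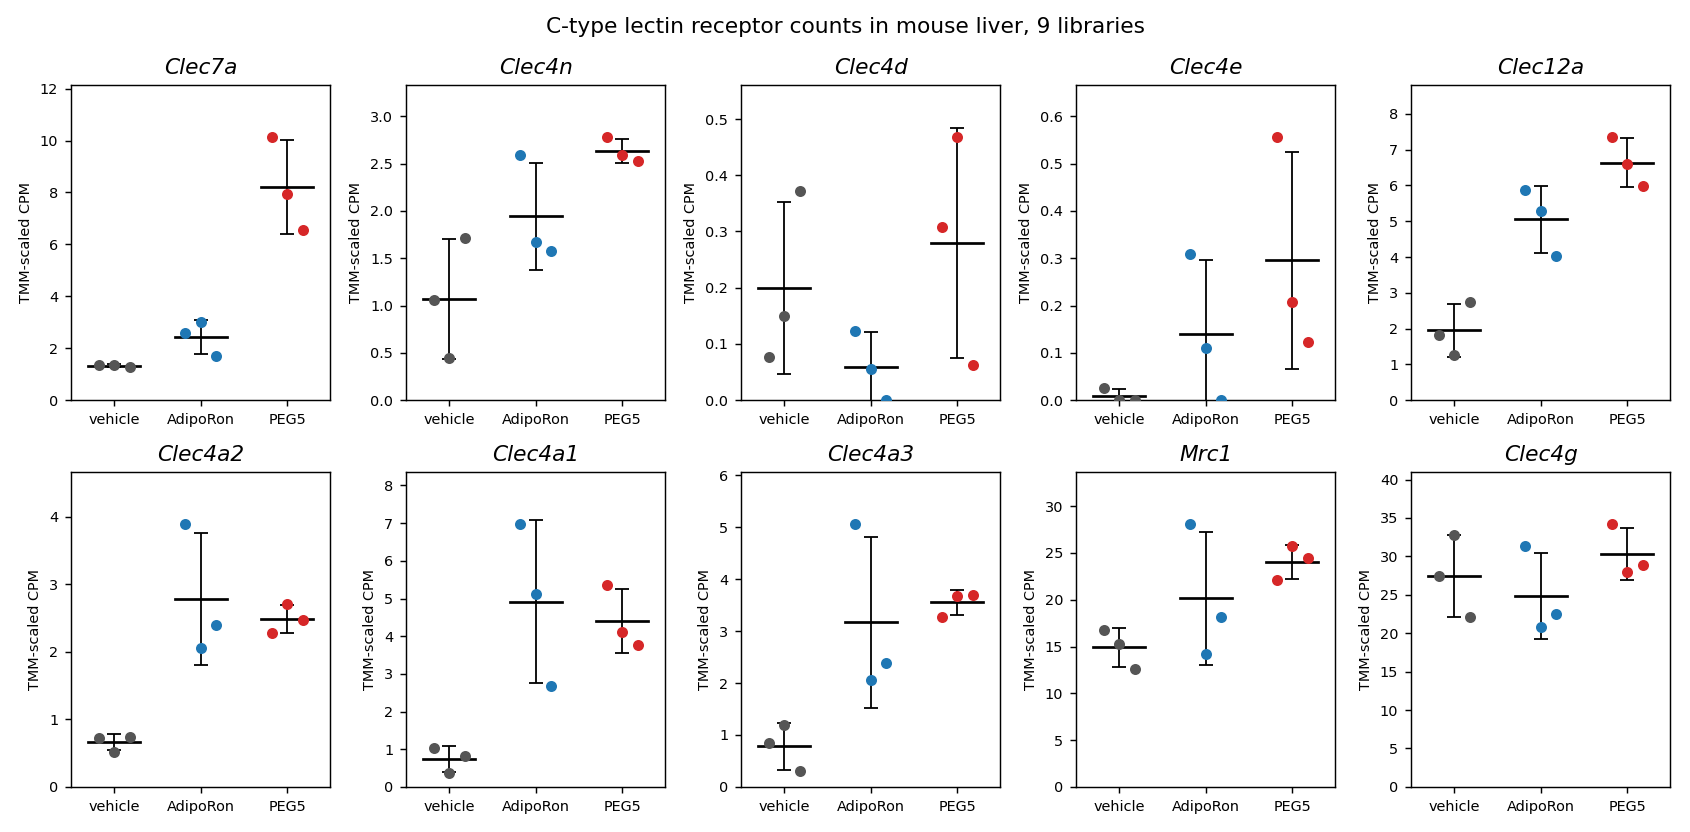
TMM-scaled CPM of the 10 members in each of the 9 libraries, with 1 panel per gene; points are libraries and bars are the group mean ± SD (n = 3), and PEG5 on the axis stands for AdipoRonPEG5. Clec7a runs from 6.54 to 10.1 CPM with AdipoRonPEG5 and stays at or below 2.999 CPM elsewhere, whereas the Clec4a1 values of both compound groups lie above all vehicle values.

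Of the 8 members that passed the count filter, Clec7a had the largest fitted rise under AdipoRonPEG5. Its levels were 1.36, 1.35 and 1.26 CPM in the vehicle libraries, 2.59, 2.999 and 1.71 CPM in the AdipoRon libraries and 10.1, 7.94 and 6.54 CPM in the AdipoRonPEG5 libraries. All AdipoRonPEG5 values were above all AdipoRon values, which were above all vehicle values. The level with AdipoRonPEG5 was 6.13-fold that of vehicle, a log2 difference of 2.62 ± 0.241 (SE) with a 95% interval of 2.08 to 3.15 (adjusted p = 0.000189, edgeR quasi-likelihood test with Benjamini-Hochberg adjustment over all 13151 genes, which holds for every adjusted p below). With AdipoRon the log2 difference from vehicle was 0.88 ± 0.261 (0.30 to 1.45) and missed the threshold of 0.05 (adjusted p = 0.078), and without AdipoRon library 3 it was 1.07 with an adjusted p of 0.0464.

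Among the receptors that work through the Fc receptor gamma chain, only Clec4n could be tested. Clec4n was at 1.05, 0.448 and 1.71 CPM in vehicle, at 2.59, 1.67 and 1.57 CPM with AdipoRon, and at 2.78, 2.60 and 2.53 CPM with AdipoRonPEG5. The AdipoRonPEG5 libraries lay close together and above every vehicle library, while those of AdipoRon overlapped vehicle. The log2 difference from vehicle was 1.30 ± 0.357 (0.51 to 2.08) with AdipoRonPEG5 (adjusted p = 0.0307) and 0.86 ± 0.368 (0.05 to 1.67) with AdipoRon (adjusted p = 0.201). The first of these missed the threshold in 5 of the 9 fits that leave out 1 library (vehicle 1 or 2, or any AdipoRonPEG5 library), with adjusted p up to 0.0893.

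Clec4e and Clec4d were near the lower limit of the sequencing, where 3 counts were taken as the floor of a library. Clec4e had 1, 0 and 0 counts in the vehicle libraries, 5, 2 and 0 with AdipoRon and 9, 4 and 2 with AdipoRonPEG5. Summed over libraries, 15 counts against 1 gave a rate 20.02 times that of vehicle with AdipoRonPEG5, with an exact 95% interval of 3.08 to 843 that covers counting error only, and 7 against 1 gave 9.99 times (1.28 to 450) with AdipoRon. Clec4d had 3, 2 and 5 counts with vehicle, 2, 1 and 0 with AdipoRon and 5, 9 and 1 with AdipoRonPEG5. Its summed rate was 2.002 times that of vehicle with AdipoRonPEG5 (0.842 to 4.98) and 0.428 times with AdipoRon (0.0757 to 1.66), so no difference from vehicle was detectable at this depth. When genes with any count were kept, Clec4e differed between AdipoRonPEG5 and vehicle with an adjusted p of 0.0497, and Clec4d with an adjusted p of 0.678.

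The DCIR group was higher with both compounds. Clec4a1 was at 1.03, 0.374 and 0.818 CPM in vehicle, 6.97, 5.11 and 2.67 CPM with AdipoRon and 5.37, 4.10 and 3.76 CPM with AdipoRonPEG5. Every compound library exceeded every vehicle library, and AdipoRon library 1 was the highest of all 9. The log2 difference was 2.60 ± 0.390 with AdipoRon, a 6.07-fold level (adjusted p = 0.0057), and 2.44 ± 0.391 with AdipoRonPEG5, a 5.41-fold level (adjusted p = 0.00248).

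Clec4a2, the member of this group with the inhibitory motif, was at 0.720, 0.523 and 0.744 CPM in vehicle, 3.89, 2.06 and 2.39 CPM with AdipoRon and 2.28, 2.70 and 2.47 CPM with AdipoRonPEG5. No compound library reached down to the vehicle range. The log2 difference was 2.03 ± 0.301 with AdipoRon (adjusted p = 0.00549) and 1.87 ± 0.302 with AdipoRonPEG5 (adjusted p = 0.00254).

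Clec4a3 was at 0.848, 1.196 and 0.298 CPM in vehicle, 5.06, 2.06 and 2.39 CPM with AdipoRon and 3.27, 3.69 and 3.70 CPM with AdipoRonPEG5. The groups did not overlap vehicle, and the vehicle libraries themselves were spread around a low level. The log2 difference was 1.98 ± 0.422 with AdipoRon (adjusted p = 0.0247) and 2.15 ± 0.417 with AdipoRonPEG5 (adjusted p = 0.00625). The AdipoRon call was lost without vehicle library 1 (adjusted p = 0.0757), without AdipoRon library 1 (0.0658), in a fit of the 2 compared groups alone (0.0729), and without vehicle library 3 and AdipoRonPEG5 library 1 together (0.0547).

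Clec12a, an inhibitory receptor of myeloid cells that binds uric acid crystals, was at 1.83, 1.27 and 2.75 CPM in vehicle. It was at 5.86, 5.28 and 4.03 CPM with AdipoRon and at 7.34, 6.59 and 5.98 CPM with AdipoRonPEG5. The 3 groups did not overlap. The log2 difference from vehicle was 1.39 ± 0.248 with AdipoRon (adjusted p = 0.0115, and 0.0559 without vehicle library 1) and 1.78 ± 0.243 with AdipoRonPEG5 (adjusted p = 0.00114).

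Of the glycan-uptake receptors, Mrc1 passed the threshold with AdipoRonPEG5 and Clec4g passed it with neither compound. Mrc1 was at 16.8, 15.3 and 12.6 CPM in vehicle, 28.1, 14.2 and 18.1 CPM with AdipoRon and 22.1, 25.7 and 24.4 CPM with AdipoRonPEG5. The AdipoRonPEG5 libraries lay above vehicle, and the AdipoRon libraries ran from within the vehicle range to the highest value of the 9. The log2 difference was 0.68 ± 0.207 (0.22 to 1.14) with AdipoRonPEG5, with an adjusted p of 0.0449 that went above 0.05 without any 1 of 7 libraries (to at most 0.13) and was 0.114 without vehicle library 3 and AdipoRonPEG5 library 1 together. It was 0.42 ± 0.209 (−0.04 to 0.88) with AdipoRon (adjusted p = 0.27). Clec4g was at 27.5, 32.8 and 22.1 CPM in vehicle, 31.3, 20.8 and 22.6 CPM with AdipoRon and 34.2, 27.9 and 28.9 CPM with AdipoRonPEG5, with all groups overlapping. Its log2 difference from vehicle was 0.14 ± 0.169 (−0.23 to 0.51) with AdipoRonPEG5 (adjusted p = 0.608) and −0.14 ± 0.170 (−0.52 to 0.23) with AdipoRon (adjusted p = 0.679).

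By count, 7 of the 8 tested members rose with AdipoRonPEG5 and 0 fell, where 9.55% of all tested genes rose and 7.63% fell, and the members' median log2 difference was 1.82 beside −0.0013 over all genes. With AdipoRon, Clec4a1, Clec4a2, Clec4a3 and Clec12a rose and 0 fell, where 3.80% of all genes rose and 1.40% fell, and the medians were 1.13 and 0.0057. The 7 members whose AdipoRonPEG5 libraries all lay above vehicle stand beside 18.2% of all genes (17.0% lay wholly below), and the 5 with AdipoRon beside 14.4% (12.4% below). These counts give no support of their own, because Clec4n, Clec4a1, Clec4a2 and Clec4a3 reached the expression filter of 0.627 CPM in all libraries of both compound groups but not in all vehicle libraries, and so could pass only through the groups in which they were high. Over all genes, the split of 1256 higher against 1004 lower with AdipoRonPEG5 became 1700 against 584 when libraries were scaled by total count, and that of 500 against 184 with AdipoRon became 883 against 64. Under that scaling the median log2 difference of all genes was 0.081 with AdipoRonPEG5 and 0.104 with AdipoRon, and no member changed direction.

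**Figure D2:**
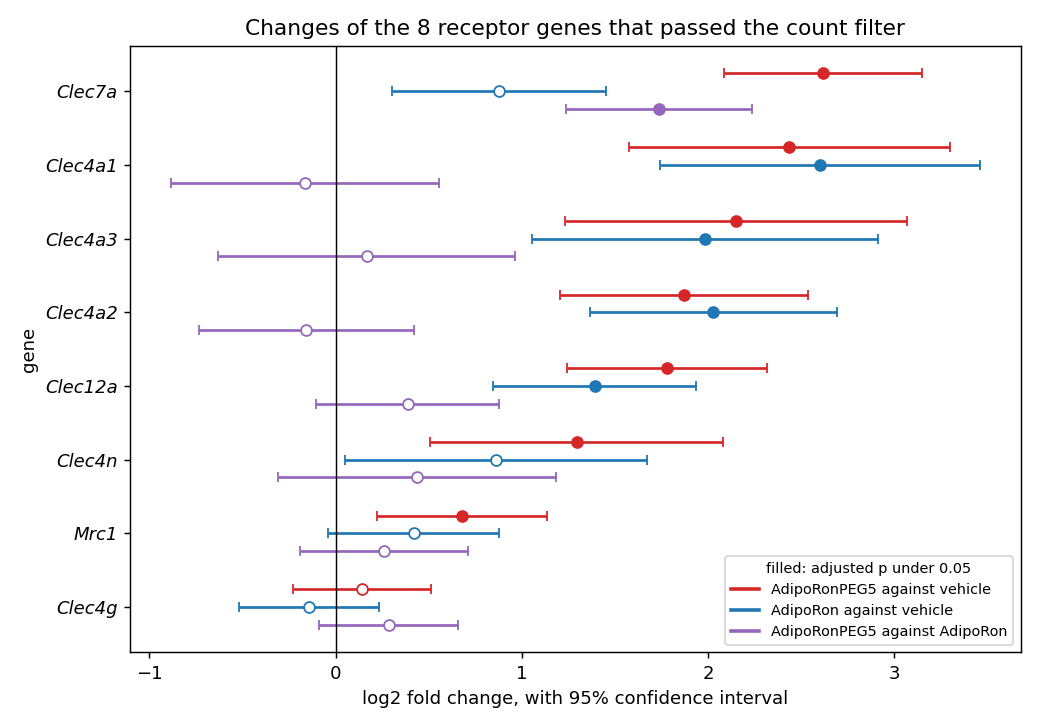
Log2 differences of the 8 tested members in the 3 comparisons, with 95% intervals; filled points have an adjusted p under 0.05. In the comparison of AdipoRonPEG5 with AdipoRon the interval of Clec7a, 1.24 to 2.24, lies away from those of the other 7, which all include 0.

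AdipoRon and its PEGylated analog were compared directly over the 8 tested members, as part of the adjustment over all genes. Clec7a was 3.33-fold higher with AdipoRonPEG5 than with AdipoRon, a log2 difference of 1.74 ± 0.227 (1.24 to 2.24, adjusted p = 0.00274). It was the 1 member called, where 2.68% of all genes were higher and 2.71% lower (352 and 357 genes, or 343 and 381 under total-count scaling), and its call held in each of the 19 alternatives, with adjusted p up to 0.0153. For the other 7, no difference passed the threshold, and the intervals bound it as follows. The log2 difference was −0.16 for Clec4a1 (−0.88 to 0.55), −0.16 for Clec4a2 (−0.73 to 0.42) and 0.17 for Clec4a3 (−0.63 to 0.96). It was 0.44 for Clec4n (−0.31 to 1.18), 0.26 for Mrc1 (−0.19 to 0.71) and 0.29 for Clec4g (−0.09 to 0.66). For Clec12a it was 0.39 (−0.10 to 0.88), with an adjusted p of 0.344, although the AdipoRonPEG5 and AdipoRon libraries did not overlap, as in 13.9% of all genes in that direction and 14.3% in the other. For the untested pair, the summed counts with AdipoRonPEG5 were 4.68 times those with AdipoRon for Clec4d (1.32 to 25.2) and 2.004 times for Clec4e (0.769 to 5.81), counting error only.

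Markers of macrophages moved with the receptors. The summed level of 12 pan-macrophage markers was 186, 171 and 267 CPM in vehicle, 621, 403 and 367 CPM with AdipoRon and 564, 536 and 604 CPM with AdipoRonPEG5, so that every compound library exceeded every vehicle library and the compound groups overlapped. Of these 12 genes, 9 rose with AdipoRonPEG5 (where 9.55% of all genes rose), with a median log2 difference of 1.64. With AdipoRon 10 rose (where 3.80% of all genes rose), with a median of 1.29, and none was at 0 in any group. Examples are Aif1 (an actin-bundling protein of macrophages), from 2.59 ± 0.359 to 9.48 ± 1.01 CPM with AdipoRonPEG5 (adjusted p = 0.000237), C1qc (a chain of complement C1q), from 24.05 ± 5.91 to 75.2 ± 5.89 CPM (0.000396), and Lyz2 (lysozyme), from 18.4 ± 3.81 to 71.0 ± 14.3 CPM (0.0004). The 9 Kupffer cell markers, those of the macrophages resident in liver sinusoids, summed to 352 to 402 CPM in vehicle, 539 to 759 CPM with AdipoRon and 711 to 745 CPM with AdipoRonPEG5, and 7 and 6 of them rose with AdipoRonPEG5 and AdipoRon. The scavenger receptor Marco went from 3.70 ± 1.42 CPM to 69.3 ± 10.5 CPM with AdipoRonPEG5 (adjusted p = 3.64e-05) and to 60.0 ± 24.2 CPM with AdipoRon (0.000389). Cd5l, a secreted protein of tissue macrophages, and Timd4, a phosphatidylserine receptor, had log2 differences of 1.98 and 1.79 with AdipoRonPEG5 (adjusted p = 0.00024 and 0.00064). AdipoRon library 1 had the highest pan-macrophage sum of the 9 and the highest value of its group for every tested member except Clec7a. The part of macrophage content in the rise of the receptors was not tested beyond the ratios that follow.

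Setting each receptor against the pan-macrophage sum of the same library showed unequal change. Clec7a was 0.732%, 0.788% and 0.473% of that sum in vehicle, 0.417%, 0.744% and 0.466% with AdipoRon and 1.80%, 1.48% and 1.08% with AdipoRonPEG5. The ratio was higher in all AdipoRonPEG5 libraries than in all others, by 1.13 on the log2 scale over vehicle and by 1.44 over AdipoRon, and AdipoRon overlapped vehicle (log2 difference −0.30). An exact two-sided permutation test of 3 against 3 libraries can go no lower than p = 0.1, which both AdipoRonPEG5 comparisons reached, so no ratio here can pass 0.05. Adjusted over the 24 comparisons of this kind, the lowest p is 0.267.

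Clec4a1 was 0.552%, 0.219% and 0.306% of the sum in vehicle, 1.12%, 1.27% and 0.727% with AdipoRon and 0.952%, 0.765% and 0.623% with AdipoRonPEG5. The compound libraries all lay above vehicle, by 1.60 on the log2 scale with AdipoRon and 1.21 with AdipoRonPEG5 (exact permutation p = 0.1 for each, the smallest possible). Clec4a2 ratios were also above vehicle in every compound library, by 0.89 with AdipoRon and 0.45 with AdipoRonPEG5, and the AdipoRonPEG5 ratios were all below those of AdipoRon, by 0.44 (p = 0.1 each, exact permutation). For Clec4a3, Clec12a and Clec4n the ratios of the groups overlapped, with log2 differences from vehicle between −0.12 and 0.98 and exact permutation p from 0.2 to 1. Against the 9 Kupffer cell markers in place of the 12 pan-macrophage markers, the ratios of Clec4a3 and Clec12a lay above vehicle in every compound library, by 1.39 and 0.70 on the log2 scale with AdipoRon and by 1.46 and 0.89 with AdipoRonPEG5 (exact permutation p = 0.1 each, the smallest possible), and those of Clec4a2 overlapped between the compounds (log2 difference −0.32, p = 0.3). Slc40a1 and Nr1h3 averaged 112 and 130 CPM of the mean Kupffer sum of 378 CPM in vehicle. Their log2 differences from vehicle were 0.32 and 0.17 with AdipoRonPEG5 and 0.05 each with AdipoRon, and neither was called. Ratios to the Kupffer sum thus rest largely on these genes. The ratio of Clec4g went the other way. Clec4g was 14.8%, 19.2% and 8.26% of the pan-macrophage sum in vehicle. It was 5.03%, 5.17% and 6.15% with AdipoRon and 6.07%, 5.21% and 4.79% with AdipoRonPEG5. All compound libraries were below all vehicle libraries, by log2 differences of −1.29 with AdipoRon and −1.32 with AdipoRonPEG5 (exact permutation p = 0.1 for each). The level of Clec4g itself overlapped between the groups. The mean pan-macrophage sum went from 208 CPM in vehicle to 464 CPM with AdipoRon and 568 CPM with AdipoRonPEG5. The lower ratio thus follows from the denominator and is no change of Clec4g. Mrc1 was 4.73% to 9.004% of the sum in vehicle and 3.53% to 4.94% in the compound libraries, with overlap.

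**Figure D3:**
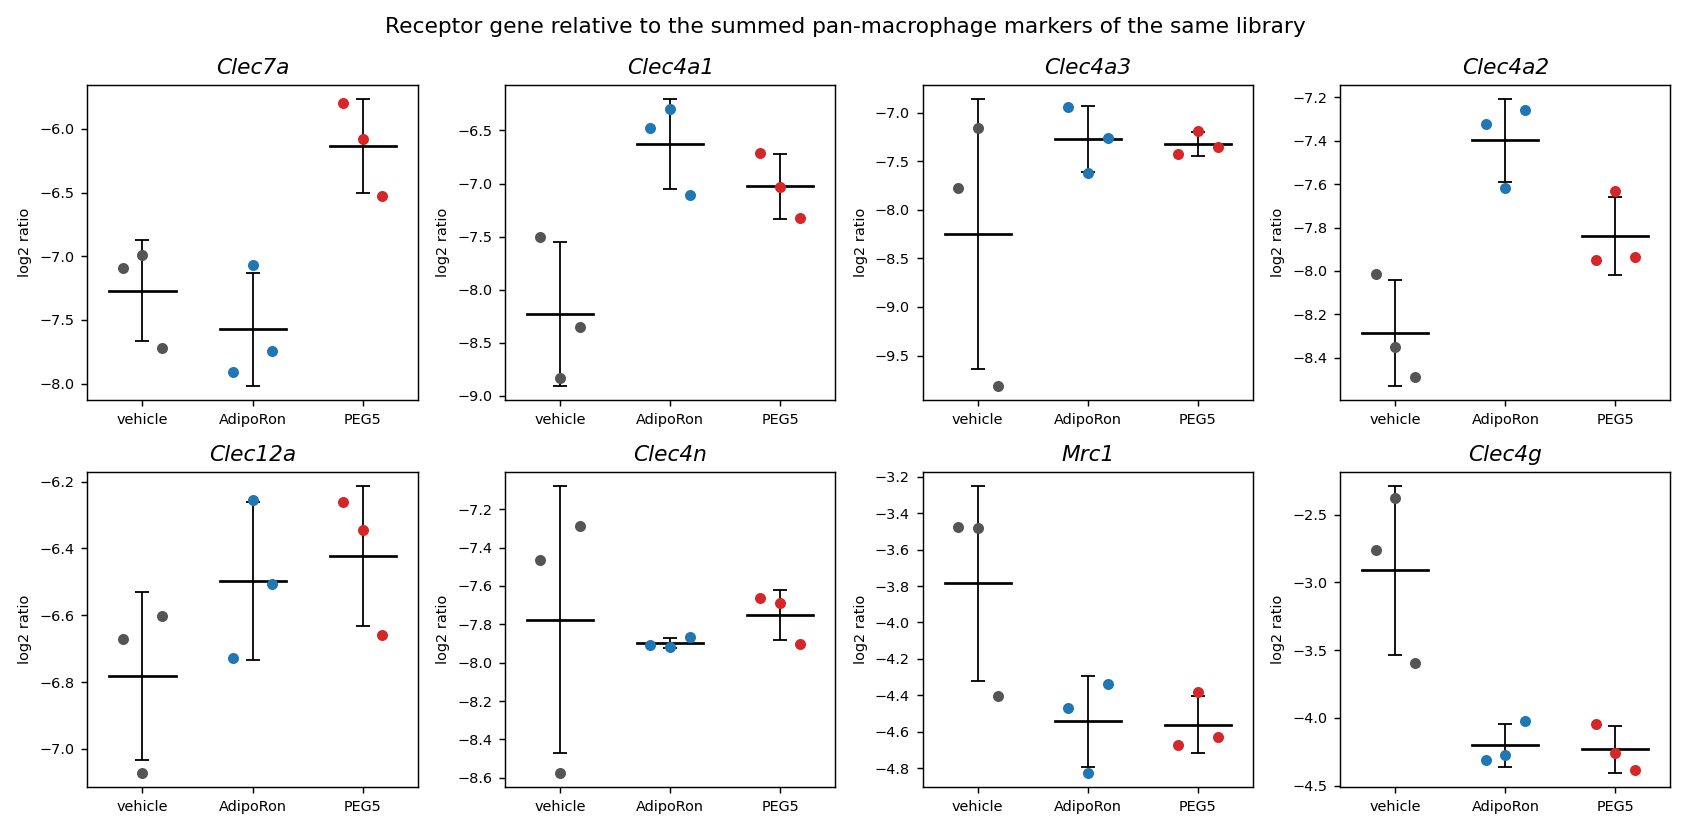
Log2 ratio of each tested member to the summed level of 12 pan-macrophage markers in the same library; points are libraries and bars are the group mean ± SD (n = 3). The ratio of Clec7a is highest in the 3 AdipoRonPEG5 libraries, and that of Clec4a1 is higher in both compound groups. That of Clec4g is lower in both, where the marker sum rose and the level of Clec4g overlapped between the groups.

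Markers of other cells gave the following values. The endothelial list of 14 genes, made for the sinusoidal cells that carry Clec4g, summed to 206 to 255 CPM in vehicle, 207 to 291 CPM with AdipoRon and 225 to 267 CPM with AdipoRonPEG5, all overlapping. Of these genes, 1 rose with AdipoRonPEG5, where 9.55% of all genes rose, and 0 passed with AdipoRon, where 3.80% of all genes rose. The gene that rose was Cdh5 (the junction protein VE-cadherin), with a log2 difference of 0.68 ± 0.181 (adjusted p = 0.026). The next by p were Stab2 (a hyaluronan scavenger receptor) at −0.22 ± 0.0852 (adjusted p = 0.106) and Kdr (the receptor of VEGF) at 0.24 ± 0.128 (0.233). Without vehicle library 3 and AdipoRonPEG5 library 1, 0 of the 14 rose with AdipoRonPEG5.

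Monocyte markers separated the compounds in part. Of 8, 5 were tested, and 4 rose with AdipoRonPEG5 and 1 with AdipoRon, where 9.55% and 3.80% of all genes rose. Itgam, among the 4, had a vehicle mean of 0.528 CPM, below the filter level of 0.627 CPM. The 1 with AdipoRon was Cd14, the lipopolysaccharide co-receptor, and 0 rose with AdipoRon without the 2 libraries high in Saa1. Between the compounds, 1 marker was higher with AdipoRonPEG5, where 2.68% of all genes were. That gene was Ccr2, the chemokine receptor by which monocytes leave the bone marrow, at 0.929 ± 0.1004 CPM in vehicle, 1.29 ± 0.237 CPM with AdipoRon and 3.63 ± 0.334 CPM with AdipoRonPEG5 (log2 difference between the compounds 1.47 ± 0.219, adjusted p = 0.00573). Plac8 was 1.17 ± 0.170 higher on the log2 scale with AdipoRonPEG5 than with vehicle (adjusted p = 0.00153). Summed, the 8 monocyte markers were at 7.62 to 9.45 CPM in vehicle, 12.2 to 18.4 CPM with AdipoRon and 19.5 to 22.6 CPM with AdipoRonPEG5, without overlap.

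Of 7 markers of lipid-associated macrophages, 4 rose with AdipoRonPEG5 and 1 with AdipoRon, where 9.55% and 3.80% of all genes rose. Between the compounds, 3 were higher with AdipoRonPEG5, where 2.68% of all genes were. Summed, the 7 were at 29.1 to 48.1 CPM in vehicle, 41.7 to 49.99 CPM with AdipoRon and 43.3 to 63.6 CPM with AdipoRonPEG5, all overlapping. This sum weighs Spp1 heavily. Spp1 averaged 27.8 CPM of a mean sum of 37.1 CPM in vehicle, 31.8 of 45.0 CPM with AdipoRon and 23.7 of 51.9 CPM with AdipoRonPEG5. Spp1 and Cd9, added here after their values were seen, did not pass with AdipoRonPEG5 (log2 differences −0.23 ± 0.202 and 0.18 ± 0.286, adjusted p = 0.486 and 0.716). Lgals3 (galectin-3, a glycan-binding protein) went from 1.99 ± 0.455 CPM to 6.402 ± 1.30 CPM with AdipoRon (adjusted p = 0.00319) and 13.2 ± 1.33 CPM with AdipoRonPEG5 (3.64e-05). Mmp12 (macrophage elastase) and Gpnmb (a glycoprotein of lipid-laden macrophages) were 3.59 ± 0.539 and 2.72 ± 0.524 higher on the log2 scale with AdipoRonPEG5 than with AdipoRon (adjusted p = 0.00582 and 0.0169), and neither passed with AdipoRon against vehicle (0.932 and 0.484). Their vehicle and AdipoRon means, 0.169 and 0.177 CPM for Mmp12 and 0.233 and 0.375 CPM for Gpnmb, were below the filter level of 0.627 CPM. Both entered the test through the AdipoRonPEG5 libraries in which they were high, so these calls give no support of their own. Trem2, also among the 4 that rose with AdipoRonPEG5, had a vehicle mean of 0.594 CPM, below the same level. The group means of Clec7a, Lgals3, Mmp12, Gpnmb and Ccr2 rose in the order vehicle, AdipoRon, AdipoRonPEG5, with vehicle and AdipoRon nearly equal for Mmp12. The same order held for Clec4n, Clec12a, Mrc1, Marco and Cd5l, among others. Whether Clec7a came from the same cells as any of these genes was not tested.

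Of 10 neutrophil markers only Csf3r (the receptor of granulocyte colony-stimulating factor, also on monocytes) was tested, and it rose by 2.23 ± 0.268 on the log2 scale with AdipoRonPEG5 (adjusted p = 0.00058) and by 1.87 with AdipoRon (0.00518). Ly6g and Mmp8, which mark neutrophils, were at 0 counts in all 9 libraries, and the 10 genes summed to 1.27 to 2.08 CPM in vehicle, 4.10 to 4.94 CPM with AdipoRon and 4.25 to 10.4 CPM with AdipoRonPEG5. Of 8 dendritic cell markers 4 were tested, and 1 of them, Batf3 (a transcription factor of conventional dendritic cells), rose with each compound, by 1.89 ± 0.437 with AdipoRonPEG5 (adjusted p = 0.014), a call absent without the 2 libraries high in Saa1. The sums for dendritic cells were 8.45 to 11.9, 12.8 to 16.8 and 11.9 to 13.4 CPM in the same order. Of 11 lymphocyte markers 7 were tested, and 4 rose and 1 fell (Cd4) with AdipoRonPEG5 while 2 rose with AdipoRon, at sums of 3.44 to 4.69, 5.74 to 8.95 and 8.15 to 9.38 CPM. Over all genes, 9.55% rose and 7.63% fell with AdipoRonPEG5, and 3.80% rose with AdipoRon. The 4 lymphocyte markers that rose, which include the 2 with AdipoRon, had vehicle means of 0.058 to 0.394 CPM, and Batf3 had 0.431 CPM. These means were below the filter level of 0.627 CPM. Such genes entered the test through compound libraries in which they were high, so these calls give no support of their own. None of the 8 stellate cell or 4 cholangiocyte markers was called in any comparison, and of 8 hepatocyte markers Apoa1, Cps1 and Serpina1a fell with AdipoRonPEG5 (0 of 8 without the 2 libraries high in Saa1) and 0 were called with AdipoRon.

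Of 15 genes of the Syk and gamma chain pathway through which the activating receptors signal, all tested, 8 rose with AdipoRonPEG5 and 7 did not pass (median log2 difference 0.67, where 9.55% of all genes rose). With AdipoRon 6 rose and 9 did not pass (median 0.68, where 3.80% of all genes rose), and 0 fell with either compound or differed between the compounds. Fcer1g, the gamma chain that Clec4n, Clec4d and Clec4e need at the cell surface, was at 4.83 ± 0.262 CPM in vehicle, 13.4 ± 3.91 CPM with AdipoRon (adjusted p = 0.00319) and 17.5 ± 0.997 CPM with AdipoRonPEG5 (0.00024). Tyrobp, an adaptor with the same kind of motif, went from 5.64 ± 0.808 to 16.8 ± 4.19 and 17.7 ± 1.90 CPM (0.00229 and 0.0004), and Vav1, an exchange factor downstream of Syk, from 1.85 ± 0.253 to 6.54 ± 1.56 and 6.79 ± 0.601 CPM (0.00229 and 0.0004). Syk and Card9 were added here for their place in the pathway after their values were seen. Syk, the kinase that Clec7a recruits, went from 2.99 ± 0.211 to 8.10 ± 1.76 and 8.52 ± 1.22 CPM (0.00363 and 0.000759), and Card9, the adaptor that links Syk to NF-kappaB, missed the threshold with AdipoRonPEG5 (log2 difference 0.91 ± 0.423, adjusted p = 0.167). Whereas Clec7a was 3.33-fold higher with AdipoRonPEG5 than with AdipoRon, the log2 difference of Syk between the compounds was 0.066 (−0.33 to 0.46).

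Of 3 phosphatases listed for inhibitory tyrosine motifs in general, 2 rose with each compound, where 9.55% of all genes rose with AdipoRonPEG5 and 3.80% with AdipoRon. Inpp5d (SHIP-1) was 1.12 ± 0.231 higher on the log2 scale with AdipoRonPEG5 (adjusted p = 0.00849) and 1.07 ± 0.233 higher with AdipoRon (0.0273). Ptpn6 (SHP-1) was 0.42 ± 0.101 and 0.41 ± 0.101 higher (0.0162 and 0.0443). Ptpn11 (SHP-2), which most cell types express, was at −0.06 ± 0.0844 with AdipoRonPEG5 (0.673).

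Of 19 genes listed for the response of myeloid cells to the activating receptors, 12 had too few counts, among them Il6, Il10, Csf2 and Cxcl2. The list holds cytokines and also inflammasome and caspase genes, and whether any of them responded to the receptors was not tested. Of the 7 tested, 5 rose with AdipoRonPEG5 and 2 with AdipoRon, where 9.55% and 3.80% of all genes rose. With AdipoRonPEG5, Cxcl1 (log2 difference −0.57 ± 0.477, adjusted p = 0.451) and Casp8 (0.21 ± 0.107, 0.203) did not pass. Tnf (tumour necrosis factor) went from 0.0591 ± 0.0531 CPM to 0.811 ± 0.179 CPM with AdipoRon (adjusted p = 0.0108) and 0.650 ± 0.243 CPM with AdipoRonPEG5 (0.00685), the vehicle mean being below the level of 3 counts in any library. Nlrp3 (the inflammasome sensor) was 1.80 ± 0.323 higher on the log2 scale with AdipoRon (0.0121) and 1.52 ± 0.328 with AdipoRonPEG5 (0.0102). Pycard (its adaptor) rose by 1.24 ± 0.305 with AdipoRonPEG5 (0.0187), and with AdipoRon it was at 0.90 ± 0.314 (0.123). The vehicle means of Tnf, Il1b and Nlrp3, at 0.0591, 0.379 and 0.385 CPM, were below the filter level of 0.627 CPM. These genes, which include the 2 that rose with AdipoRon, entered the test through compound libraries in which they were high. Their calls give no support of their own.

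Other C-type lectin genes were counted from a separate list. Of 40 other lectin genes listed, 21 were tested. With AdipoRonPEG5 4 rose (median log2 difference 0.28), where 9.55% of all genes rose. With AdipoRon 0 rose and 1 fell (median 0.33), where 3.80% of all genes rose and 1.40% fell. Clec1b, Cd207 and Cd72 were among those that rose. Clec1b (CLEC-2, the podoplanin receptor of platelets and of Kupffer cells) went from 5.77 ± 0.806 to 13.6 ± 2.12 CPM (adjusted p = 0.00437) and Cd207 (langerin) from 0.852 ± 0.251 to 1.90 ± 0.363 CPM (0.0185). Asgr2, a subunit of the hepatocyte receptor for desialylated glycoproteins, was the gene that fell with AdipoRon, by 0.39 ± 0.0729 on the log2 scale (adjusted p = 0.0139).

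**Figure D4:**
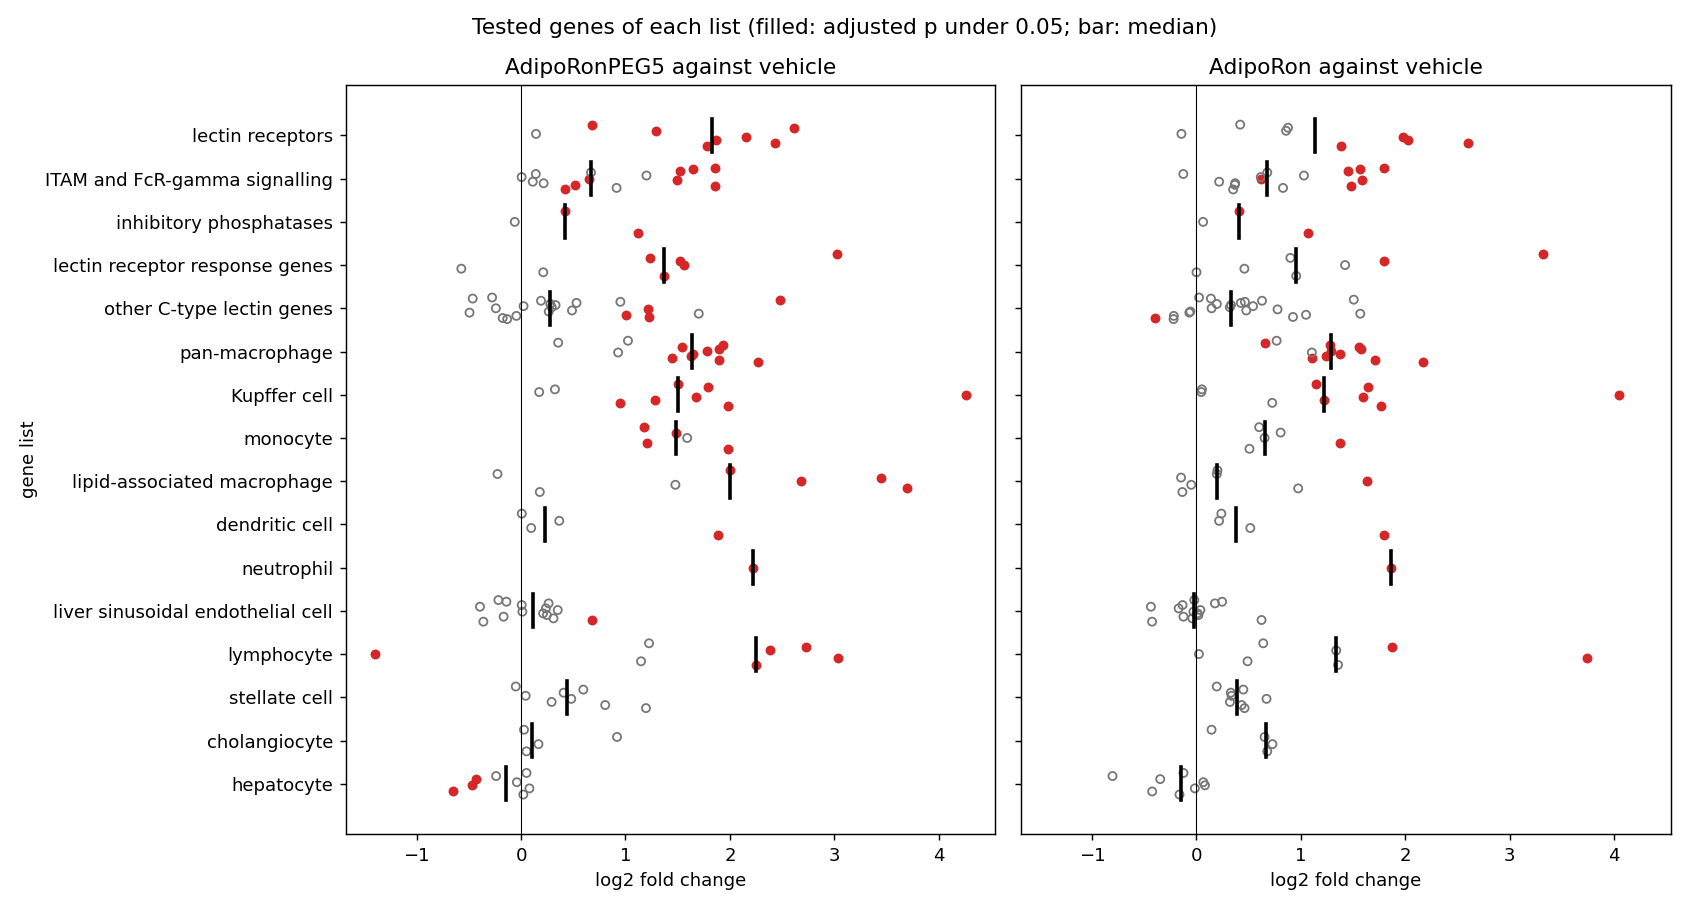
Log2 differences of single genes against vehicle by list, for the members, the signalling genes, the response genes, the other lectins and the cell type markers; each point is 1 tested gene and the bar is the list median. The medians of the macrophage lists are 1.64 and 1.51 with AdipoRonPEG5, that of the other lectin genes is 0.28, and that of the sinusoidal endothelial list is 0.11.

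For each tested member, the gene with the most similar profile was sought among 11133 genes with a mean of at least 1 CPM, as the root mean square difference between log2 profiles centred over the 9 libraries. The closest to Clec7a was Ccr2, at 0.32 on that log2 scale, with Osgin1 nearly as close at 0.34. The profile of Clec7a itself has a root mean square of 1.08 around its mean. For Clec4n the closest gene was Itgam (the integrin chain CD11b) at 0.18, against an own spread of 0.72. For Clec12a it was Icam1 (an adhesion molecule) at 0.12 against 0.81, and for Clec4a2 it was Trpm2 (a calcium channel) at 0.14 against 0.89. For Clec4a1 it was Bin2 at 0.28 against 1.27, and for Clec4a3 it was Pik3r5 (a regulatory subunit of phosphoinositide 3-kinase gamma) at 0.39 against 1.11. Bin2 averaged 1.1999 CPM in vehicle, 5.22 CPM with AdipoRon and 5.16 CPM with AdipoRonPEG5, and Trpm2 averaged 4.21, 13.3 and 13.9 CPM in the same order. Mrc1 and Clec4g varied little themselves, so their nearest genes, Tspan3 at 0.11 against 0.38 and Trim24 at 0.13 against 0.24, are close in size as much as in shape. All profiles come from the same 9 libraries, and the nearest gene of a profile is a description with no test.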

How the data were processed

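Liver RNA of 9 libraries (vehicle, AdipoRon and AdipoRonPEG5, n = 3 each) was measured by RNA-seq. The authors deposited, in 1 table, raw read counts per gene and FPKM values. STAR 2.5, TopHat, HTSeq 0.6.1, DESeq2 and edgeR are named in the submitters' processing notes without their roles, and the genome build, strand setting and treatment of reads that map to several genes are not given in the sources used here. In the deposited FPKM, the gene length implied by count and depth was a whole number within 0.01 base for 99.99% of the values above 0.

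Counts were scaled by TMM, filtered with filterByExpr and tested with edgeR 4.0.16 (quasi-likelihood, 3 group means, all 9 libraries; R 4.3.3). P-values were adjusted by Benjamini-Hochberg over 13151 genes, at a threshold of 0.05, after the procedure was tested on simulated data. Ratios to marker sums used an exact permutation test. DESeq2 1.42.0 and limma 3.58.1 (voom) were alternatives. The total count per library was 13942322 to 39473195, and 3 counts were taken as the floor of a library. The members and the 15 lists of 176 other genes were chosen with earlier results of these data known. Beside the members, up to 3 genes of each list, those with the lowest p for AdipoRonPEG5 against vehicle, are named, and the 1 closest profile per tested member. Emr1 in the table was read as Adgre1. A planned description of protein sequences was not run. One gene that this rule would name is not reported here.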

Additional observations from a re-analysis of the deposited data

How the results depend on the processing

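Of 456 recomputed fold changes (8 members, 3 comparisons, 19 alternatives each), 433 kept their direction and side of the threshold, 18 lost the call, 1 gained it and 4 changed sign. The sign changes were all in values that passed no test: Clec4g with AdipoRonPEG5 against vehicle was −0.072 without vehicle 3 and AdipoRonPEG5 1, and between the compounds the fits without 1 library ran from −0.45 to 0.17 for Clec4a1, from −0.34 to 0.17 for Clec4a2 (both highest without AdipoRon 1) and from −0.071 (without AdipoRon 2) to 0.68 for Clec4a3. With the Kupffer list as denominator, ratio differences changed sign for Clec4n (0.30) and Clec7a (0.11) with AdipoRon against vehicle, and for Clec4a3 (0.067), Clec4g (0.089) and Mrc1 (0.099) between the compounds. The cause was not tested.

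Leaving out 1 library gave 5 to 7 members higher with AdipoRonPEG5, 2 to 5 with AdipoRon (2 without vehicle 1) and 1 between the compounds. The other alternatives gave 6 to 8, 3 to 4 and 1. Deviations of log2 CPM from the group mean were correlated between libraries of different groups. They gave −0.27 to 0.077 for same-numbered libraries and −0.30 to 0.32 for others. No pairing by number was seen, and with 3 libraries per group these values cannot exclude it. The replicate block gave 7, 4 and 1 members, and over all genes 1044 higher and 719 lower with AdipoRonPEG5, 365 and 79 with AdipoRon, and 190 and 148 between the compounds. Leaving out 1 library gave 800 to 1288 and 536 to 1046, 201 to 471 and 41 to 177, and 135 to 551 and 98 to 481 of these. The remaining alternatives gave 1044 to 1700 and 584 to 1103 (1256 and 1004 as reported), 256 to 883 and 64 to 365 (500 and 184), and 190 to 508 and 148 to 500 (352 and 357). Clec4d and Clec4e had too few counts to pass the filter at this depth. The counts of list genes without vehicle 3 and AdipoRonPEG5 1 were an alternative chosen after seeing the data.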
